A study of Mus musculus with 12 samples.

Results

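The genes described here encode the degradative machinery of the lysosome in thioglycolate-elicited peritoneal macrophages (PMφs), together with the transcription factors that govern it. A list of 36 genes was taken, and every one was found among the 43278 gene symbols of the table of read counts. They are 9 proteases, 4 lipid hydrolases, 4 cofactors and exporters of cholesterol, 7 glycosidases, 5 membrane proteins and channels, 3 parts of the proton pump and the 4 members of the TFEB family. The list was drawn by name and function and not by how the genes moved, although results of these data were already known when it was written.

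The lysosome is the acidic compartment in which a macrophage digests what it engulfs. Its soluble hydrolases work at the low pH kept by a proton pump, its membrane glycoproteins and channels hold the enzymes in and let ions and products out, and cholesterol freed there from lipoproteins leaves through the NPC2 and NPC1 proteins. Many of these genes carry the CLEAR element, to which TFEB and its relatives TFE3, MITF and TFEC bind. In foam cells, which are macrophages loaded with modified lipoprotein, lysosomal acid lipase releases the cholesterol of internalised cholesteryl esters.

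PMφs came from wild-type C57BL/6J mice 8 to 12 weeks old of both sexes, were drawn into the peritoneal cavity with thioglycolate, pooled by experiment and selected by adherence, and poly(A) RNA was sequenced. The 12 libraries form 4 groups of 3, which are untreated control PMφs, PMφs given 100 µg/ml human medium oxidized LDL for 24 h (oxLDL), PMφs given 10 ng/ml ultrapure LPS (LPS), and PMφs given oxLDL and then LPS (oxLDL+LPS). The study's methods bound LPS stimulation to a few hours, and its exact length for these libraries is not given in the sources used here. All groups share the thioglycolate elicitation and the wild-type genotype, and oxLDL is a mixture whose lipid and protein parts were not separated.

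Values are given as normalized counts, which are whole numbers made by dividing the reads of a library by 1 factor. The libraries held 16.7 to 26.2 M reads by the spacing of their values. The SD between the 3 libraries of a group was under 2 times the error expected from counting reads in 10 of the 144 pairs of a member and a group, which belonged to Tpcn1, Tfeb, Neu1, Npc1 and Atp6v1h, and the median over all pairs was 10.4 times. Normalized counts summed to 17.2 to 17.7 M in control libraries and 17.4 M in each oxLDL library, but to 22.6 to 26.4 M with LPS and 22.1 to 23.3 M with oxLDL and LPS. All 9 macrophage marker genes were detected in every group, and their summed count was between 235591 and 350836 in all 12 libraries. Marker sums were 39 to 86 for B cells and 2 to 14 for T cells. Those of neutrophils were 31 to 50 without and 79 to 258 with LPS, with Ly6g at 0 throughout and S100a9, Mpo and Ngp at most 5. S100a8 alone was at 31 to 49 without and 74 to 248 with LPS. Sums of eosinophils and mast cells were 223 to 430 and 77 to 175, with Prg2 at 0 throughout. Siglecf alone was at 180 to 383 and 55 to 124, while Cpa3 and Tpsb2 overlapped between libraries with and without LPS. Markers of mesothelial cells and fibroblasts summed to between 5438 and 32041. They differed between replicate numbers more than between groups, with 5845 to 25144 in control and 6317 to 32041 in LPS libraries. In oxLDL+LPS libraries they summed to 5438 to 18554. Col1a1 was at 12012, 5517 and 1965 in LPS libraries 1 to 3 and at 6800, 5833 and 1782 in oxLDL+LPS libraries. In number 1 Msln (12 and 13) and Krt8 (37 and 43) did not fall in this way. The part of these markers in the results was not tested.

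The replicate numbers marked pools only in part. Libraries of the same number deviated together from their group means, with correlations of 0.691 to 0.731 between control and oxLDL and 0.664 to 0.733 between LPS and oxLDL+LPS, and with lower ones of 0.330 to 0.665 across LPS. Xist, which is transcribed from the inactive X chromosome of females, was at 1 and 2 in control and oxLDL libraries of number 1 but at 6331 and 3812 in LPS and oxLDL+LPS libraries of that number. The Y-linked Ddx3y was at 1156 and 1132 in the first pair and at 459 and 439 in the second. In number 2, Xist was at 5933 to 7751 and Ddx3y at 0 to 2. In number 3, Xist was at 3538 to 4217 and Ddx3y at 707 to 775. The replicate numbers thus also differed in the sex of their mice. By these values, number 1 with LPS and number 1 without LPS held different mixtures of mice. Results for LPS are given with and without that number, and results for oxLDL, which compare libraries within an LPS state, are given without and with the number as a block. Whether a pool, the mice in it or the day of an experiment moved a value cannot be told apart.

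To show where factors of the TFEB family could bind, the 250 bases before the RefSeq transcription start were read from build GRCm38.p6 for the 29 members that have an entry. The E-box CACGTG was present in at least 1 window of 8 members, beside 6.86% of the 27025 genes in that table. These 8 are Ctsa, Ctsd, Ctsl, Gaa, Gla, Glb1, Lamp1 and Mcoln1. The longer CLEAR core TCACGTGA, which contains the E-box, was present in 4 members (Ctsa, Ctsd, Gla and Mcoln1), beside 0.907% of genes. The M-box TCATGTGA, read on both strands, was present in Gla and Grn, beside 0.984% of genes. In the annotation used for exon lengths, the Ctsl window and the Ctsa window with the match lie inside the gene. The CLEAR cores of Ctsd and Mcoln1 also lie past the annotated start of the gene. Windows of 4 members are shown for their matches, which are in capitals, on the strand of the gene. They are Gla at chrX:134601006-134601255 (minus strand), Mcoln1 at chr8:3500269-3500518 (plus strand), Ctsd at chr7:142387828-142388077 (minus strand) and Lamp1 at chr8:13158911-13159160 (plus strand).
Gla: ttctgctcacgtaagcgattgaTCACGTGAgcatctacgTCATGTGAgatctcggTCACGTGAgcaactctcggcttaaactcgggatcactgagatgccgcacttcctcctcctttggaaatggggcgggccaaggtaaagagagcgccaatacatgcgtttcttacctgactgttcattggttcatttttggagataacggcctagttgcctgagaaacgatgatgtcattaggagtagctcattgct
Mcoln1: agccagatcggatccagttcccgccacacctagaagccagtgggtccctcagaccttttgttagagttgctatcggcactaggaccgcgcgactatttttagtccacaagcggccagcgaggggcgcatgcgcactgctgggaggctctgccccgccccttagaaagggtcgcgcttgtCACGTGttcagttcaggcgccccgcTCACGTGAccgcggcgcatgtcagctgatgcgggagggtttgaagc
Ctsd: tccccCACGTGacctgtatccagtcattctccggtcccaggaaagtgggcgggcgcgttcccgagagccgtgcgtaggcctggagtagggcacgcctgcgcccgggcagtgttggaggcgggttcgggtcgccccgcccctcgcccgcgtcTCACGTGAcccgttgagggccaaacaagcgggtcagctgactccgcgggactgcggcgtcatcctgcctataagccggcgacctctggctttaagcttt
Lamp1: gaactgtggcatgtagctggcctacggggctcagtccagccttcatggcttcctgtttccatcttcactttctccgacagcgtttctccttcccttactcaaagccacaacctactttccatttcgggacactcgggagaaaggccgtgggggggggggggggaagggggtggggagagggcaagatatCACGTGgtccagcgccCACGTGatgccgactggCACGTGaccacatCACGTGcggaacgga

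The Gla window held 2 CLEAR cores and an M-box, and the Lamp1 window held 4 E-boxes close to the start. Ctsc, Tfec, Galc, Tfeb and Lipa, the 5 members with the widest response to LPS among those with a window, held none of these letters. Windows are shown for 4 of them, Lipa at chr19:34527475-34527724 (minus strand), Galc at chr12:98259460-98259709 (minus strand), Ctsc at chr7:88277835-88278084 (plus strand) and Tfec at chr6:16898442-16898691 (minus strand).
Lipa: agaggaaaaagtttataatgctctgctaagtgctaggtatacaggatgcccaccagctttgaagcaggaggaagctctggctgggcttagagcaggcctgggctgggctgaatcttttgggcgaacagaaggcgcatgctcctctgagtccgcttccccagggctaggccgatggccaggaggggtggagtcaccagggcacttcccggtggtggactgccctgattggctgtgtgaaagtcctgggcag
Galc: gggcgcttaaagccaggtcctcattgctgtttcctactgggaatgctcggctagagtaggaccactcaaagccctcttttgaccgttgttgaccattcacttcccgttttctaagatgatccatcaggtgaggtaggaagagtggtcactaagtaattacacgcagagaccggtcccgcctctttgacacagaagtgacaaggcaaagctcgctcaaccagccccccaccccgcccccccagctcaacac
Ctsc: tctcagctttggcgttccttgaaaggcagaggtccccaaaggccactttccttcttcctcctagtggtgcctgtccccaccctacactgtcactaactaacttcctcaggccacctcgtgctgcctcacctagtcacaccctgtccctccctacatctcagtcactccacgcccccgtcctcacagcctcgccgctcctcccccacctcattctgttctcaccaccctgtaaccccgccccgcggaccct
Tfec: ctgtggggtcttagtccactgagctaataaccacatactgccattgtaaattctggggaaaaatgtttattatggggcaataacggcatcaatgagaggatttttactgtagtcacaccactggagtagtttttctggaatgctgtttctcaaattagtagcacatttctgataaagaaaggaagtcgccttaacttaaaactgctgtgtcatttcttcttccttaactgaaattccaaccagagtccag

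Of the 8 members with an E-box, 3 were lower with LPS than in control PMφs and 0 were higher by the test described below, with log2 fold changes from -0.57 to -0.11. Of the 21 without it, 7 were lower and 7 were higher, over a range from -1.86 to 2.61, while 30.3% of all genes were lower and 31.4% higher. With libraries rescaled to equal totals, 8 of the 8 were lower and 0 higher, and of the 21, 14 were lower and 3 higher, beside 55.7% and 16.7% of all genes. The absence of a match says only that these letters are not in this window. A window was not found for Npc1, Tpcn1, Atp6v0d2, Atp6v1h, Asah1, Ctsb and Ctsh.

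Together the members held 9.66% to 10.4% of all normalized counts in control libraries, a share that does not depend on scaling. Psap, encoding the precursor of the saposins that present lipids to hydrolases, and the proteases Ctsd and Ctsb made up 68.3% to 68.6% of that share. Per kilobase of annotated exon, Psap had the highest mean level in control (178000 normalized counts per kb), followed by Ctsd (160600) and Ctsb (53940). The TFEB family lay at the other end, with Tfe3 at 271, Mitf at 249, Tfeb at 231 and Tfec at 38.5 per kb, the last being the lowest of the 36.

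The share of lysosomal transcripts was 9.04% to 10.7% with oxLDL, overlapping the control range. It was 5.40% to 6.32% with LPS and 5.50% to 6.63% with oxLDL and LPS. The 6 libraries with LPS thus lay below the 6 without, and those with and without oxLDL overlapped. LPS libraries also summed to more, and the median gene lost share as well. With equal totals the median log2 fold change with LPS was -0.78 for the members, beside -0.48 for all genes. In PMφs with oxLDL these medians were -0.61 and -0.41. In RNA of whole cultures, fewer cells of a type and less RNA per cell cannot be told apart.

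**Figure D1:**
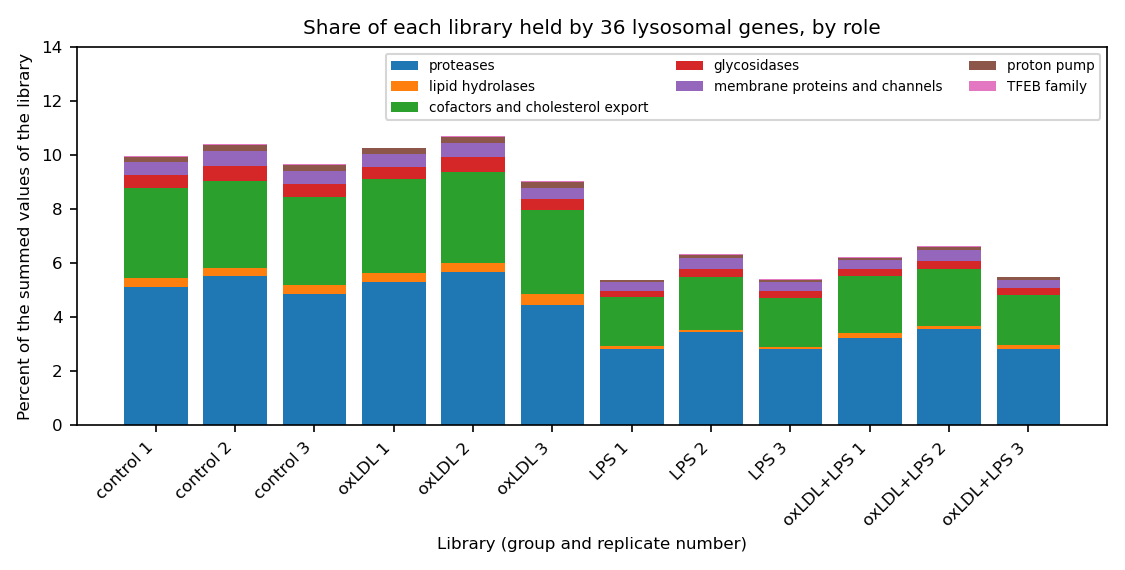
Percent of the summed normalized counts of each library held by the 36 lysosomal genes, with stacked colours for the 7 role groups and 1 bar for each of the 12 libraries. Bars of libraries without LPS reach 9.04% to 10.7% and bars of libraries with LPS reach 5.40% to 6.63%, with proteases and cofactors the tallest parts of every bar.

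The response to LPS was then compared gene by gene, in PMφs without oxLDL (LPS against control) and in PMφs with it (oxLDL+LPS against oxLDL). Log2(value + 1) was fitted with limma over all genes in the 6 libraries compared, and a gene was called where its p, adjusted by Benjamini and Hochberg's method, was under 0.1. Without oxLDL 8 members rose and 14 fell, so that 22 of 36 were called beside 61.7% of the 13023 genes tested (31.4% higher and 30.3% lower). With oxLDL 7 rose and 12 fell, beside 54.5% of 12900 genes (28.2% higher and 26.3% lower). The median log2 fold change of the members was -0.29 without and -0.22 with oxLDL, beside medians of -0.00 and -0.02 over all genes. All 19 members called with oxLDL were also called without it, in the same direction, which is 86.4% of those called without. Gaa, Neu1 and Scarb2 passed only without oxLDL, and the difference between the 2 responses is tested further on.

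**Figure D2:**
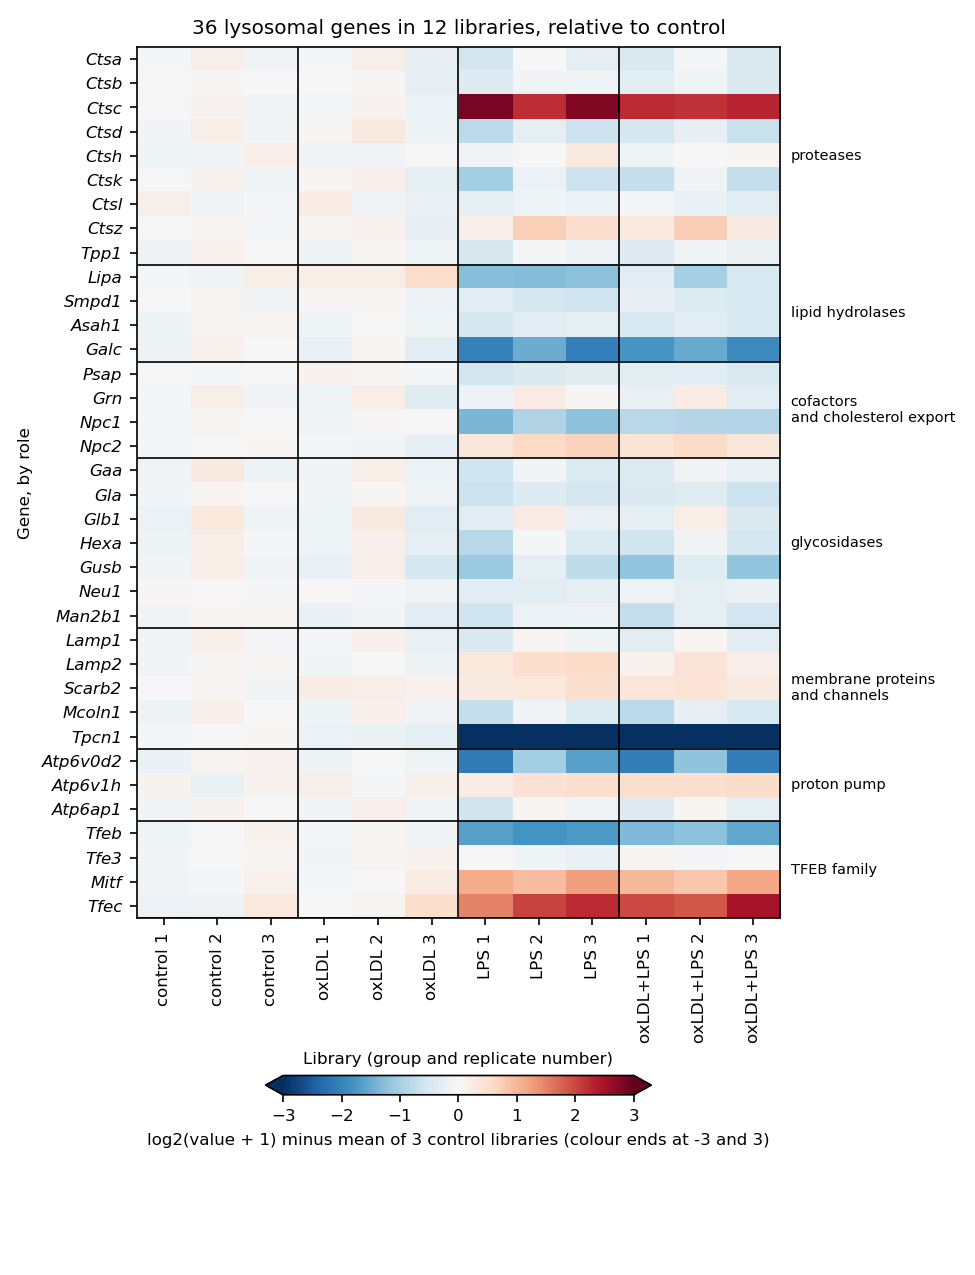
Log2(value + 1) of each of the 36 genes (rows, by role) in each of the 12 libraries (columns), minus the mean of the 3 control libraries, from -3 (blue) to 3 (red), where Tpcn1 runs past the blue end. The 6 columns with LPS stand apart by deep red for Ctsc and Tfec and deep blue for Tpcn1, Galc, Atp6v0d2 and Tfeb, while the oxLDL columns stay pale.

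The direction of the smaller rises depended on the scaling, since LPS libraries sum to more. With all libraries rescaled to equal totals, the median of all genes moved to -0.48 without and to -0.41 with oxLDL, and 3 members were called higher and 28 lower in either comparison. The 3 were Ctsc, Mitf and Tfec, which also kept their rises under upper quartile scaling and quantile normalization, and all 14 and 12 falls were kept under these 3 scalings. The calls of Ctsz, Npc2, Lamp2, Scarb2 and Atp6v1h as higher were lost with equal totals and after quantile normalization, as given with each gene. Under upper quartile scaling all 5 were kept without oxLDL. With oxLDL that scaling kept those of Npc2 and Atp6v1h and lost those of Ctsz and Lamp2. Over all genes the split of calls was 4093 higher and 3946 lower as deposited and 2174 higher and 7225 lower with equal totals.

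Without a block and without the number 1 libraries, 8 members were called higher and 11 lower in the comparison without oxLDL, beside 28.1% and 26.1% of genes, and 5 higher and 10 lower with it, beside 23.7% and 21.0%. With the replicate number as a block the calls were 8 higher and 20 lower, beside 34.6% and 34.1% of genes (68.7% in all), then 8 higher and 21 lower, beside 32.0% and 31.4% (63.4% in all). The block added falls of Ctsa, Ctsd, Tpp1, Psap, Hexa and Man2b1 in both comparisons, of Gaa, Neu1 and Atp6ap1 and a rise of Scarb2 with oxLDL. The block pairs number 1, whose libraries with and without LPS were of different mixtures of mice. The libraries did not overlap for 8 members that were higher and 17 that were lower without oxLDL, beside 32.1% and 31.1% of genes, and for 8 and 13 with oxLDL, beside 29.6% and 28.0%.

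The TFEB family divided under LPS. Tfeb, the factor best known for inducing lysosomal genes, fell, Mitf and Tfec rose, and Tfe3 did not pass the test. Tfeb was at 1198, 1326 and 1399 in control libraries 1 to 3 and at 418, 375 and 397 with LPS, and at 1266, 1350 and 1237 with oxLDL and 520, 558 and 440 with oxLDL and LPS. Every library with LPS lay below every library without it. The log2 fold change was -1.72 ± 0.10 (SE, n = 3 against 3, limma adjusted p = 6.21e-06) without oxLDL, a 3.29-fold fall, and -1.35 ± 0.11 (limma adjusted p = 6.59e-05) with it, a 2.55-fold fall.

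Mitf, which governs pigment cells and osteoclasts as well as macrophages, was at 1441, 1514 and 1675 in control and 3337, 2938 and 3689 with LPS. In oxLDL-treated PMφs it was at 1501, 1542 and 1798, and with LPS at 3071, 2711 and 3436. The groups with LPS did not overlap those without. Its log2 fold change was 1.10 ± 0.11 (limma adjusted p = 0.000110) without oxLDL and 0.93 ± 0.12 (limma adjusted p = 0.000553) with it.

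Tfec, expressed mainly in macrophages, was the lowest of the family in control PMφs, at 188, 192 and 266, and was at 599, 873 and 1004 with LPS. It was at 215, 224 and 306 with oxLDL and 842, 773 and 1184 with oxLDL and LPS. The rise was 3.78-fold without oxLDL (log2 1.92 ± 0.22, limma adjusted p = 0.000212) and 3.73-fold with it (1.90 ± 0.20, limma adjusted p = 0.000244). Per kilobase, mean Tfec was at 147.5 with LPS and Tfeb at 70.0, the reverse of their order in control.

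Tfe3 was the most even member of the family. It was at 2373, 2506 and 2645 in control, 2372, 2632 and 2703 with oxLDL, 2485, 2306 and 2166 with LPS and 2667, 2456 and 2517 with both, and all 4 groups overlapped. Its log2 fold change with LPS was -0.11 (95% interval -0.33 to 0.10, limma adjusted p = 0.325) without oxLDL and -0.01 (-0.21 to 0.18, limma adjusted p = 0.926) with it. With equal totals the same differences were -0.60 and -0.40 and both were called lower. Tfe3 was also called lower after quantile normalization in both comparisons and, without oxLDL, under upper quartile scaling.

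**Figure D3:**
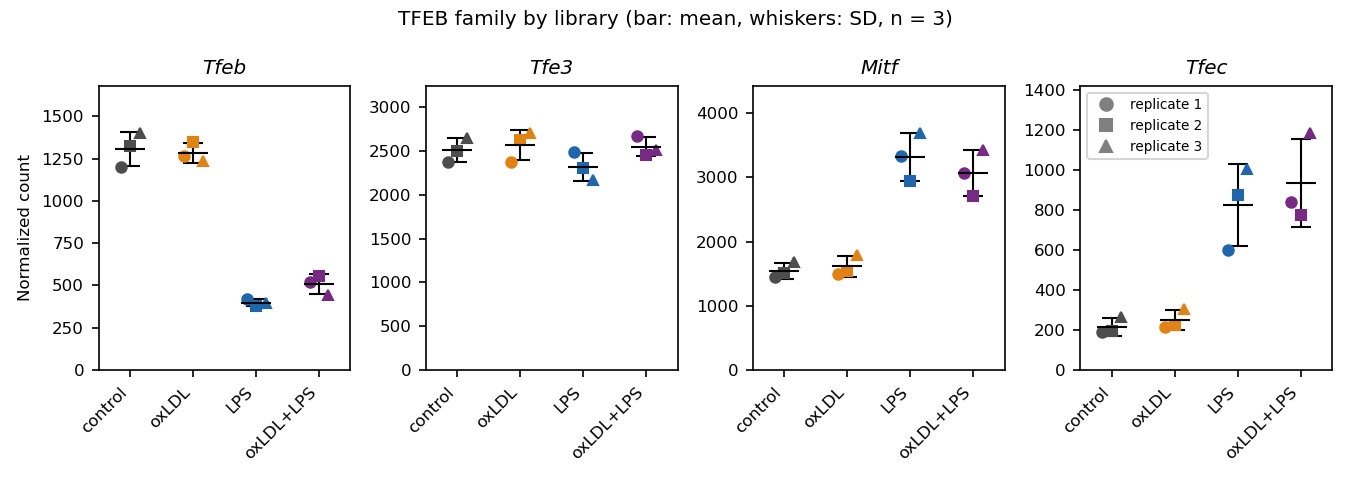
Normalized count of Tfeb, Tfe3, Mitf and Tfec in each of the 12 libraries (points, shaped by replicate number), with the mean (bar) and SD (whiskers) of each group of 3. Tfeb is at 375 to 558 with LPS and at 1198 to 1399 without, Mitf and Tfec are higher in every library with LPS, and the Tfe3 groups overlap.

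Among the 9 proteases, 2 rose with LPS, 1 fell and 6 did not pass the test, in either comparison. Over all genes 31.4% were higher and 30.3% lower without oxLDL, and 28.2% and 26.3% with it. Ctsc, the dipeptidyl peptidase that activates granule serine proteases, showed the largest rise of the 36 members. It was at 2114, 2318 and 2011 in control and 15501, 9879 and 14601 with LPS, and at 2092, 2292 and 1903 with oxLDL and 10142, 9668 and 10480 with oxLDL and LPS. Libraries with LPS were above all others, by 6.10-fold without oxLDL (log2 2.61 ± 0.17, limma adjusted p = 1.21e-05) and 4.83-fold with it (2.27 ± 0.09, limma adjusted p = 2.69e-06).

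Ctsk, a collagenase best known from osteoclasts, fell. It was at 14522, 15524 and 13151 in control and 7139, 12715 and 9340 with LPS, and at 14946, 16070 and 11940 with oxLDL and 8933, 13264 and 8697 with both. LPS libraries lay below control libraries, whereas the highest oxLDL+LPS library lay above the lowest oxLDL library. The log2 fold change was -0.60 ± 0.20 (limma adjusted p = 0.0362) without oxLDL and -0.49 ± 0.19 (limma adjusted p = 0.0718) with it. The adjusted p was 0.153 and 0.337 without number 1 and reached 0.108 without control replicate 2. With oxLDL it was 0.177 to 0.202 without replicate 1 or 2 of oxLDL or replicate 1 or 3 of oxLDL+LPS. Fibroblasts also transcribe Ctsk, and the fibroblast markers are given above.

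Ctsz, a carboxypeptidase, was called higher (log2 0.47 ± 0.17, limma adjusted p = 0.0455, and 0.45 ± 0.18, limma adjusted p = 0.0785), but stood at -0.02 and 0.06 with equal totals and at -0.43, called lower, and -0.15 after quantile normalization. Its calls were also lost without control replicate 1 or 3, LPS replicate 2 or 3, and, in the second comparison, under upper quartile scaling and without oxLDL replicate 1 or 3, oxLDL+LPS replicate 2 or number 1 (adjusted p of 0.102 to 0.216). The major proteases Ctsb, Ctsd and Ctsl had differences of -0.20, -0.57 and -0.20 without oxLDL and -0.22, -0.54 and -0.16 with it, and Ctsa, which protects β-galactosidase and sialidase, -0.28 in both. Tpp1, a tripeptidyl peptidase, stood at -0.23 and -0.17 and Ctsh, an aminopeptidase, at 0.05 in both. Ctsd and Tpp1 were called lower with the replicate block, as was Ctsa (limma adjusted p of 0.0327, 0.0611 and 0.0748 without oxLDL). In the annotation, exons of Ctsl, Ctsa and Ctsb overlap genes of the other strand over 26.8%, 17.4% and 12.8% of their length, and 34.4% of Ctsd is shared with a gene model on its own strand, so reads there are uncertain.

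All 4 lipid hydrolases fell in both comparisons, with medians of -0.87 and -0.62, beside 30.3% and 26.3% of all genes called lower. Lipa, encoding lysosomal acid lipase, was at 39089, 36212 and 44927 in control and fell to 16595, 16244 and 17048 with LPS. With oxLDL it was at 45954, 44736 and 57482, and with oxLDL and LPS at 31830, 20095 and 29239. No library with LPS reached the lowest library without it. The fall was 2.40-fold without oxLDL (log2 -1.26 ± 0.13, limma adjusted p = 0.000101) and 1.85-fold with it (-0.89 ± 0.21, limma adjusted p = 0.00987).

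Galc, which removes galactose from galactosylceramide, fell further. It was at 4768, 5823 and 5389 in control and 1293, 1897 and 1281 with LPS, and at 4541, 5564 and 4212 with oxLDL and 1569, 1871 and 1422 with both. LPS libraries were separate from the rest, with a 3.62-fold fall without oxLDL (log2 -1.86 ± 0.17, limma adjusted p = 5.79e-05) and a 2.94-fold fall with it (-1.56 ± 0.14, limma adjusted p = 0.000113). Acid sphingomyelinase (Smpd1) and acid ceramidase (Asah1) fell less, by 0.48 and 0.38 on the log2 scale without oxLDL and by 0.34 each with it.

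Of the cholesterol exporters, Npc1, the membrane transporter, fell, and Npc2, the soluble carrier that hands it cholesterol, was called higher. Npc1 was at 8728, 9612 and 9031 in control, 3526, 4905 and 3911 with LPS, 8416, 9288 and 9255 with oxLDL and 5120, 4959 and 4991 with both. The groups with LPS were apart from those without, with log2 fold changes of -1.16 ± 0.13 (limma adjusted p = 0.000209) and, with oxLDL, -0.84 ± 0.08 (limma adjusted p = 0.000153).

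Npc2 was at 30163, 31023 and 32485 in control, 40175, 47259 and 50094 with LPS, 29858, 29351 and 26262 with oxLDL and 41790, 46444 and 39354 with both. The libraries with LPS lay above all others. The difference on the deposited scale was 0.55 ± 0.14 (limma adjusted p = 0.0113) and 0.58 ± 0.13 (limma adjusted p = 0.00795), but it was 0.06 and 0.19 with equal totals, neither of them called, and -0.30, called lower, and -0.03 after quantile normalization. Psap (-0.46 and -0.41) and progranulin (Grn, 0.04 and -0.01) did not pass without the block. Psap was called lower with it, at limma adjusted p of 0.0890 and 0.0893.

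The 7 glycosidases had log2 fold changes below 0 in both comparisons. Of them, 4 fell without oxLDL and 2 with it, beside 30.3% and 26.3% of all genes. Gusb, encoding β-glucuronidase, was at 19754, 24339 and 19687 in control, 9839, 17648 and 12452 with LPS, 18039, 23351 and 14595 with oxLDL and 9280, 16515 and 9239 with both. LPS libraries lay below control libraries, while oxLDL+LPS and oxLDL libraries overlapped. The log2 fold change was -0.71 ± 0.21 (limma adjusted p = 0.0242) and -0.71 ± 0.27 (limma adjusted p = 0.0641), the second losing its call without oxLDL replicate 1 or 2, oxLDL+LPS replicate 1 or 3, or number 1 (adjusted p of 0.135 to 0.278).

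Gla, encoding α-galactosidase A and the member with 2 CLEAR cores above, was at 6742, 7500 and 7109 in control, 4553, 5469 and 4987 with LPS, 6761, 7381 and 6481 with oxLDL and 5248, 5554 and 4524 with both. It fell by 0.51 ± 0.10 (limma adjusted p = 0.00372) and by 0.43 ± 0.10 (limma adjusted p = 0.0122) on the log2 scale, with no overlap between libraries with and without LPS. Sialidase (Neu1, -0.31) and acid α-glucosidase (Gaa, -0.37) fell without oxLDL and stood at -0.16 and -0.21 with it. Gaa lost its call without control replicate 1 or 2, LPS replicate 1 or 3, or number 1 (adjusted p of 0.117 to 0.273). Hexa (-0.43 and -0.33) and the α-mannosidase Man2b1 (-0.31 and -0.30) passed on the deposited scale only with the block, and β-galactosidase (Glb1, -0.11 and -0.12) in neither fit.

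Membrane proteins and channels moved in both directions. Tpcn1, encoding a cation channel of endosomes and lysosomes, showed the largest change of all 36 members. It was at 2119, 2154 and 2215 in control and 221, 192 and 230 with LPS, and at 1924, 1875 and 1780 with oxLDL and 250, 204 and 223 with both. Libraries with LPS were separated from those without by a wide gap, a 10.1-fold fall without oxLDL (log2 -3.33 ± 0.10, limma adjusted p = 3.34e-07) and an 8.23-fold fall with it (-3.04 ± 0.10, limma adjusted p = 9.94e-07).

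Mcoln1, the calcium channel of the lysosome through which TFEB is activated, fell to a lesser degree. It was at 1913, 2340 and 2106 in control, 1278, 2010 and 1598 with LPS, 1904, 2365 and 1987 with oxLDL and 1200, 1788 and 1549 with both. LPS and control libraries overlapped, by the LPS library of number 2, and oxLDL+LPS and oxLDL libraries did not. The log2 fold change was -0.40 ± 0.17 (limma adjusted p = 0.0771) and -0.48 ± 0.16 (limma adjusted p = 0.0420). The first lost its call without control replicate 2 or 3, LPS replicate 1 or 3, or number 1 (adjusted p of 0.147 to 0.214), and the second without oxLDL replicate 2 (0.137).

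Lamp2, a major glycoprotein of the lysosomal membrane, and Scarb2, the receptor that carries glucocerebrosidase there, were called higher as deposited. Lamp2 stood at 0.45 ± 0.11 (limma adjusted p = 0.00970) and, with oxLDL, 0.31 ± 0.11 (limma adjusted p = 0.0542), but at -0.03 and -0.08 with equal totals and at -0.37 and -0.43, both called lower, after quantile normalization. Its second call was also lost under upper quartile scaling, without number 1, and without oxLDL replicate 1 or 3 or oxLDL+LPS replicate 2 (adjusted p of 0.103 to 0.170). Scarb2 stood at 0.35 ± 0.09 (limma adjusted p = 0.0137) and 0.17 ± 0.08 (limma adjusted p = 0.115), and at -0.13 and -0.22 with equal totals, the second called lower, and -0.19 and -0.29, both called lower, after quantile normalization. Lamp1, with 4 E-boxes, stood at -0.16 in both and did not pass the test.

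In the proton pump, Atp6v0d2, a subunit enriched in macrophages and osteoclasts, fell. It was at 21401, 25849 and 26259 in control, 5710, 11945 and 7912 with LPS, 21869, 24655 and 22233 with oxLDL and 5824, 10552 and 5831 with both. The LPS groups did not reach the others, with a 3.00-fold fall without oxLDL (log2 -1.58 ± 0.25, limma adjusted p = 0.00118) and 3.22-fold with it (-1.69 ± 0.23, limma adjusted p = 0.000857).

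Atp6v1h, a subunit of the catalytic part, was at 3820, 3088 and 3805 in control, 4170, 4837 and 4922 with LPS, 4004, 3409 and 3947 with oxLDL and 5159, 5074 and 5191 with both. It was called higher by 0.38 ± 0.12 (limma adjusted p = 0.0275) and 0.44 ± 0.09 (limma adjusted p = 0.00498), but stood at -0.10 and 0.05 with equal totals and at -0.19 and -0.05 after quantile normalization, none of them called. The accessory subunit Atp6ap1 stood at -0.21 and -0.20 and was called lower only with the block and oxLDL (limma adjusted p = 0.0689).

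**Figure D4:**
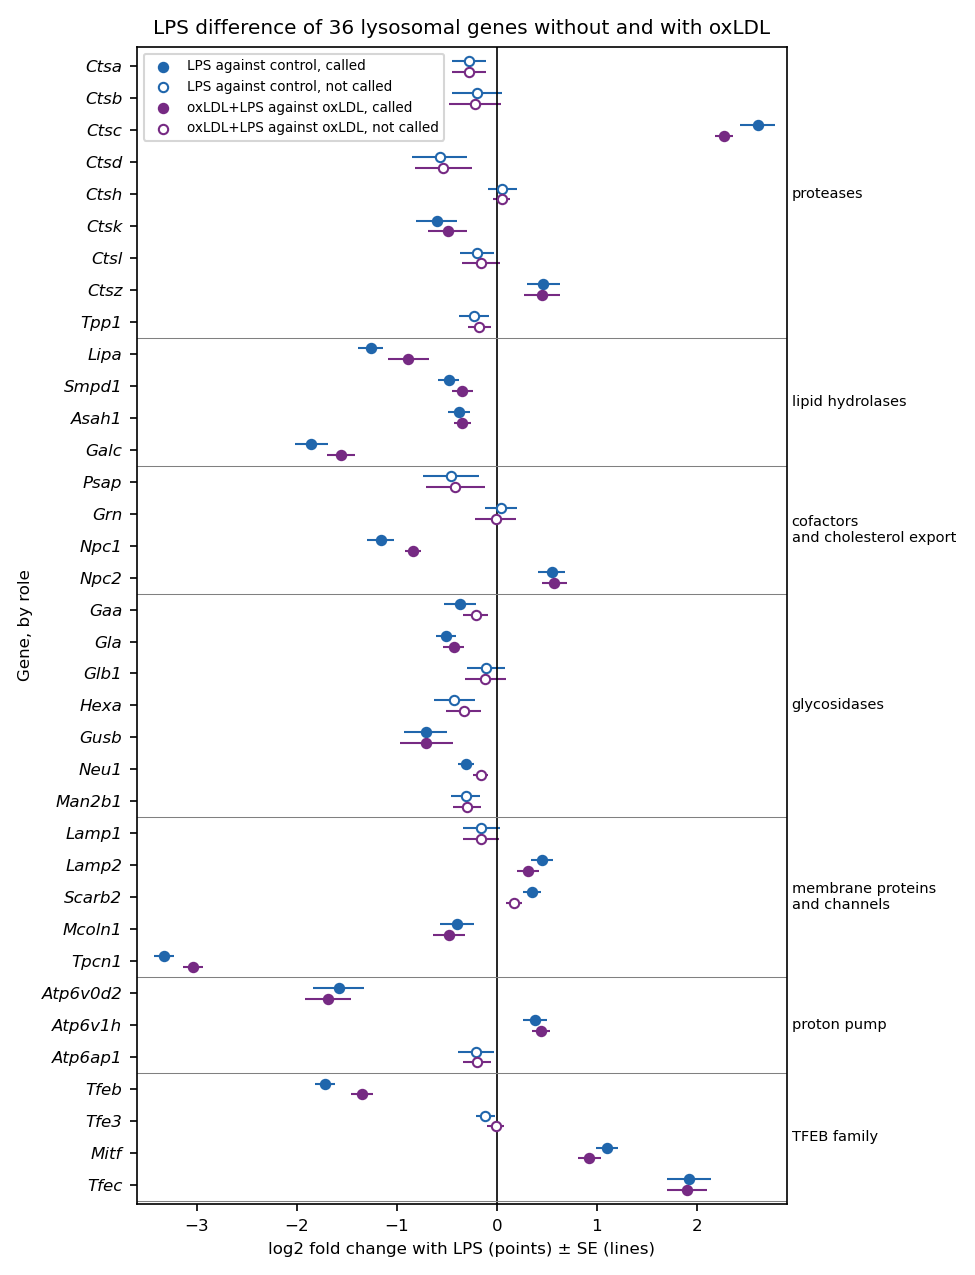
Log2 fold change with LPS (points) ± SE (lines) of each of the 36 genes, by role, in PMφs without oxLDL (blue) and with oxLDL (purple), with filled points for calls at an adjusted p under 0.1. Values run from -3.33 for Tpcn1 to 2.61 for Ctsc, and the lipid hydrolases are the group whose 4 members are called lower in both comparisons.

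The effect of oxLDL was compared within each LPS state. Without LPS (oxLDL against control) no member was called, and neither was any of the 12751 genes tested (0.0%), of which 381 had an unadjusted p under 0.05. The smallest adjusted p over all genes was 0.250. The members' log2 fold changes ran from -0.22 to 0.30 around a median of -0.04, beside -0.01 over all genes. With the replicate number as a block 2 members were called higher and 1 lower, beside 1.8% and 2.92% of genes (4.71% in all). Across the 3 numbers, 5 members were higher in every pair and 8 lower, beside 17.5% and 19.4% of genes. Libraries did not overlap for 1 that was higher (Scarb2) and 2 that were lower (Npc2 and Tpcn1), beside 3.79% and 3.91%.

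The 3 called with the block were Lipa, Scarb2 and Tpcn1. Lipa was higher with oxLDL in each of the 3 pairs, by 0.23, 0.31 and 0.36 on the log2 scale, although the groups overlapped (log2 0.30, limma adjusted p = 0.0551 with the block and 1.00 without). Scarb2 was at 3076, 3165 and 2880 in control and 3571, 3482 and 3304 with oxLDL, so that no libraries overlapped (0.18, limma adjusted p = 0.0499 with the block and 1.00 without). Tpcn1 was lower in each pair, at -0.14, -0.20 and -0.32, again without overlap (-0.22, limma adjusted p = 0.0374 with the block and 1.00 without). With the block, none of the 3 was called without number 1 (limma adjusted p of 0.406, 0.325 and 0.121) or without number 2 (0.518, 0.262 and 0.255). All 3 were called without number 3. That last fit rests on few libraries and called 1285 genes, with a smallest limma adjusted p of 2.08e-116, so its calls carry little weight. With a block fitted over all 12 libraries none of the 3 was called (limma adjusted p of 0.993, 0.993 and 0.950). For Tfeb, Tfe3 and Mitf the 95% intervals of the difference were -0.21 to 0.16, -0.14 to 0.21 and -0.16 to 0.28, and for Tfec -0.24 to 0.65.

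With LPS (oxLDL+LPS against LPS) again no member and none of 12786 genes (0.0%) was called, while 890 genes had an unadjusted p under 0.05. The members ranged from -0.37 to 0.67 with a median of 0.01, beside -0.01 over all genes. With the block Lipa and Tfeb were called higher and Ctsc lower, beside 4.42% and 8.74% of genes (13.2% in all). Across the 3 numbers, 7 members were higher in every pair and 7 lower, beside 21.0% and 24.4% of genes. Libraries did not overlap for 5 members that were higher, namely Lipa, Npc1, Neu1, Atp6v1h and Tfeb, and for 0 that were lower, beside 6.18% and 6.39% of genes.

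Lipa stood out by size. Its 3 LPS libraries lay between 16244 and 17048 and its 3 oxLDL+LPS libraries between 20095 and 31830. The difference was 0.67 (95% interval 0.23 to 1.12, not adjusted for the number of genes tested). It was 0.94 in number 1, 0.31 in number 2 and 0.78 in number 3. The limma adjusted p was 0.0200 with the block, 0.698 without it, and 0.0907 without a block and without oxLDL+LPS replicate 2, where the difference was 0.88. With the block the adjusted p was 0.250 without number 1, 0.373 without number 3 and 3.32e-09 without number 2. That last fit rests on few libraries. Over all genes it called 2945, with a smallest limma adjusted p of 2.49e-195, so its small p-values carry little weight.

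Tfeb was higher in each pair with LPS, by 0.31, 0.57 and 0.15 (mean 0.34, limma adjusted p = 0.0722 with the block, 0.698 without it, and 0.306, 0.174 and 0.371 with the block and without number 1, 2 or 3). Ctsc was lower in each pair, by 0.61, 0.03 and 0.48 on the log2 scale, and the 2 groups overlapped (mean -0.37, limma adjusted p = 0.0896 with the block, 0.733 without it, and with the block 0.508 without number 1, 4.5e-05 without number 2 and 0.457 without number 3). Npc1 was higher by 0.54, 0.02 and 0.35 (mean 0.30), with a blocked limma adjusted p of 0.105, which was 0.000135 without number 2, 0.562 without number 1 and 0.465 without number 3. In Lipa, Ctsc and Npc1, number 2 gave the smallest difference. The small p-values of Ctsc and Npc1 without number 2 come from the same fit as that of Lipa and carry little weight too. With a block fitted over all 12 libraries Lipa, Tfeb and Npc1 were called higher (limma adjusted p of 0.0286, 0.0807 and 0.0928) and Ctsc was not called (0.170).

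**Figure D5:**
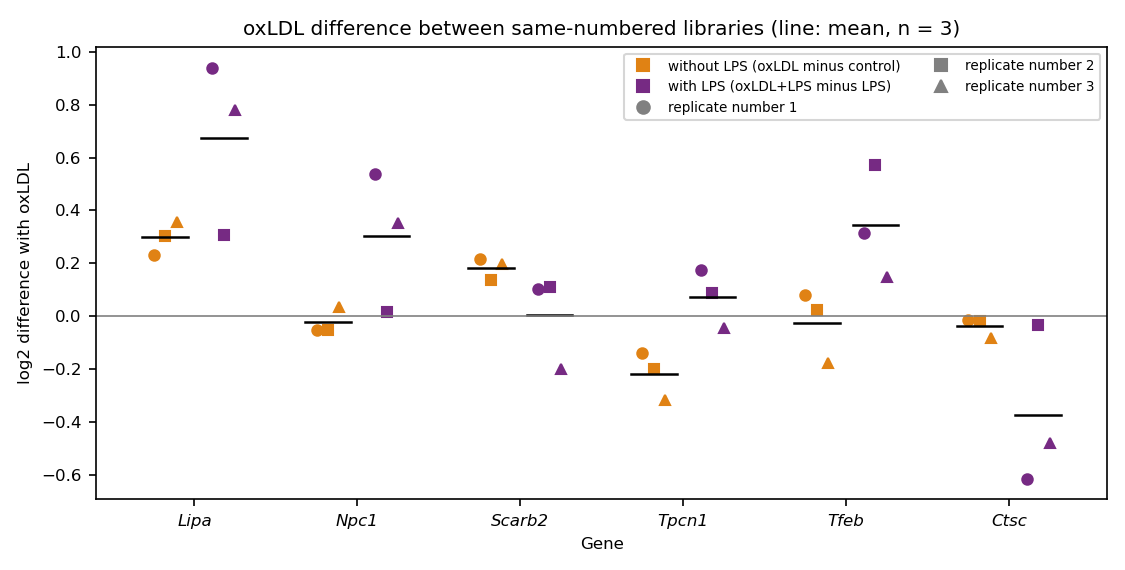
Log2 difference between same-numbered libraries with and without oxLDL for the 5 genes called with the block and for Npc1, without LPS (orange) and with LPS (purple), with points shaped by replicate number and a line at the mean of 3. Lipa is above 0 in all 6 pairs, from 0.23 to 0.94, and Tpcn1 and Scarb2 keep to 1 side of 0 only without LPS.

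Whether LPS acted differently in PMφs with oxLDL was tested as an interaction over all 12 libraries. Of the 14 members that fell with LPS, 12 had a log2 fold change nearer 0 with oxLDL, Mcoln1 and Atp6v0d2 being the exceptions, and of the 8 that rose 6 did, Npc2 and Atp6v1h being the exceptions. Among all genes called in that first comparison 81.4% of the falls and 81.6% of the rises were nearer 0 with oxLDL, so the members' counts are near those of other genes chosen in the same way. No member was called for the interaction, and 0 of 13482 genes (0.0%) were, with 418 at an unadjusted p under 0.05. The 5 widest interaction terms were those of Lipa (0.38, 95% interval -0.15 to 0.91), Tfeb (0.37, 0.06 to 0.68), Ctsc (-0.34, -0.79 to 0.12), Npc1 (0.32, -0.01 to 0.66) and Galc (0.30). These intervals are for each gene alone, are not adjusted for the number of genes tested, and belong to terms picked by their size. With the 6 pools of 2 libraries as a block, 147 genes (1.09%) were called and no member among them, the limma adjusted p being 0.310 for Lipa, 0.200 for Tfeb, 0.275 for Ctsc, 0.259 for Npc1 and 0.230 for Galc. The responses to LPS with and without oxLDL were thus not shown to differ for any of the 36 genes.

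Genes related to the lysosome or to its control were read more widely from 114 further genes in 7 lists. Of these, 112 were tested for LPS, and not all encode proteins of the lysosome itself. Without oxLDL 23 of them rose and 46 fell, beside 31.4% and 30.3% of all genes (61.7% in all). With oxLDL 23 rose and 45 fell, beside 28.2% and 26.3% (54.5% in all), and the medians were -0.17 in both. With equal totals 9 rose and 89 fell, beside 16.7% and 55.7% of all genes. With oxLDL these were 10 and 84, beside 15.8% and 51.8%. Other glycosidases and sulfatases leaned furthest down, with 1 higher and 10 lower of 17 without oxLDL (median -0.42) and 0 and 9 with it (-0.39). Among 26 other membrane proteins and channels 8 rose and 12 fell, then 7 and 12, and among 16 other pump subunits 4 rose and 5 fell, then 5 and 5. Other proteases gave 0 rises and 2 falls of 8 in each comparison, and other lipid hydrolases and cofactors 1 and 5 of 11, then 2 and 5. Genes of enzyme delivery and cystatins gave 4 and 2 of 12, then 4 and 3, and genes through which mTORC1 and calcineurin control TFEB gave 5 and 10 of 22, then 5 and 9. With equal totals and without oxLDL these counts leaned down in every list, as did those of all genes (16.7% higher and 55.7% lower). They were 0 higher and 16 lower for glycosidases and sulfatases, 6 and 18 for membrane proteins and 2 and 11 for pump subunits. Proteases gave 0 and 7, lipid hydrolases and cofactors 0 and 10, enzyme delivery 1 and 9 and the control of TFEB 0 and 18.

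The 2 further genes with the widest fall were the same in both comparisons. Sgsh, a sulfatase of heparan sulfate breakdown, was at 393, 710 and 478 in control and 54, 51 and 48 with LPS (log2 -3.30 ± 0.22, limma adjusted p = 1.29e-05), and fell by 3.04 with oxLDL. Rragd, a RagD GTPase that places TFEB under mTORC1, was at 873, 1261 and 1094 in control and 137, 165 and 155 with LPS (-2.80 ± 0.16, limma adjusted p = 5.09e-06), and fell by 2.48 with oxLDL. The libraries with and without LPS were far apart for each.

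The 2 with the widest rise were also shared. Mcoln2, a channel of the same family as Mcoln1, was at 649, 636 and 686 in control and 1976, 2451 and 1690 with LPS (1.62 ± 0.14, limma adjusted p = 4.66e-05), and at 3003, 2527 and 3237 with oxLDL and LPS (2.09 ± 0.11 against oxLDL, limma adjusted p = 9.56e-06). Clcn7, the chloride and proton antiporter of the lysosome, was at 7572, 8447 and 8343 in control and 18006, 26721 and 23988 with LPS (1.48 ± 0.16, limma adjusted p = 0.000146). Both rises were kept with equal totals, at 1.13 and 0.99 without oxLDL. In the comparisons of oxLDL none of these further genes was called without the block, and with it 3 were higher and 7 lower of 112 without LPS, where 1.8% and 2.92% of all genes were, and 7 higher and 3 lower of 111 with LPS, where 4.42% and 8.74% were.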

How the data were processed

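RNA-seq of 12 libraries was read from 1 table of 43278 gene symbols. The authors trimmed reads with Trimmomatic 0.32, aligned them to the mouse genome (mm10) with STAR 2.5.1b and counted them per GENCODE gene with featureCounts, whose strand setting is not given in the sources used here. The deposited values are a score, namely read counts divided by 1 factor per library (0.708 to 1.31) and rounded, so no count model was used.

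Symbols turned into dates (25, at most 0.165% of a library) were kept out of gene lists, and 18273 genes were at 0 in every library. Log2(value + 1) was fitted for genes that reached 10 in 3 or more of the compared libraries, with limma 3.58.1 in R 4.3.3 (eBayes with trend), first without a block and with Benjamini-Hochberg adjustment over all genes tested. The interaction used all 12 libraries. The code was tested on simulated data. P-values without a block measure the spread between libraries of a group, which came from pools of mice. Those with a block measure the spread left after differences between replicate numbers, or pools, are removed. An exact two-sided permutation test of 3 against 3 cannot go below 0.1.

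The replicate numbers pair oxLDL with its control (correlations of deviations 0.691 to 0.731 without and 0.664 to 0.733 with LPS, 11186 genes), so blocked values stand beside those results. The members and lists were chosen with earlier results of these data known. Values in every library are given for the TFEB family, Lipa and the 2 members of each other role group with the largest absolute log2 fold change. The genes in the plot of paired differences, Scarb2 and the further genes called with a block were chosen after their values were seen. Levels per kilobase used the union of annotated exons, and promoter windows came from RefSeq on GRCm38.p6. Rescaling to equal totals, leaving out number 1 without a block, alone and with equal totals, and the pool block of the interaction were chosen after seeing the data.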

Additional observations from a re-analysis of the deposited data

Results flagged for a closer look

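For 2 of the 36 members (5.56%, beside 555 of 13482 genes or 4.12%), oxLDL went with a shift in 1 direction in all 3 replicate numbers without LPS and in the other direction in all 3 with LPS. The sialidase gene Neu1 stood at -0.04 without LPS and 0.11 with LPS on the log2 scale, and Mitf at 0.06 and -0.11. The opposite directions themselves were not tested for these genes. The interaction term for each, which bears on the difference in size, was not called (limma adjusted p of 0.408 for Neu1 and 0.285 for Mitf with the pools as a block, and 1.00 for both without a block).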

How the results depend on the processing

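With libraries rescaled to equal totals, LPS against control called 3 members higher and 28 lower (median -0.78), and oxLDL+LPS against oxLDL 3 and 28 (median -0.61). Over all genes 16.7% and 55.7%, and 15.8% and 51.8%, were called. Without number 1 as well, the members' counts were 3 and 27 (median -0.74), and 3 and 21 (median -0.58). Over all genes they were 1735 and 6267 of 11971 (median -0.51), and 1625 and 5503 of 12030 (median -0.42). After quantile normalization the members' counts were 3 and 30 (median -0.87), and 3 and 27 (median -0.68). Over all genes they were 3243 and 4816 of 13023 (median -0.14), and 2848 and 4283 of 12900 (median -0.13). For LPS against control, values turned to -0.43 (quantile) and -0.0175 (equal totals) for Ctsz and to -0.30 (quantile) for Npc2. Those of Lamp2 turned to -0.37, -0.0315 and, without number 1 as well, -0.0481, those of Scarb2 to -0.19, -0.13 and -0.13, and those of Atp6v1h to -0.19, -0.10 and -0.0175. For oxLDL+LPS against oxLDL they turned to -0.15 for Ctsz, -0.0312 for Npc2 and -0.0525 for Atp6v1h (quantile), to -0.43, -0.0824 and -0.0618 for Lamp2, and to -0.29 and -0.22 for Scarb2. The wider downward split under equal totals follows from the larger sums of the LPS libraries.

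With the replicate number as a block, oxLDL against control called 2 members higher and 1 lower and 601 genes, or 0 members and 5 genes when all 12 libraries were fitted. Leaving out 1 number each under the block gave 0 to 4 members higher, 0 to 3 lower and 139 to 1285 genes (214 without number 1). For oxLDL+LPS against LPS the block called 2 members higher, 1 lower and 1682 genes, or 3 higher and 1015 genes with all 12 libraries. Leaving out 1 number or library gave 0 to 3 higher, 0 to 3 lower and 0 to 2945 genes (71 without number 1), and 1 higher and 91 genes without a block when oxLDL+LPS replicate 2 was left out. For LPS against control the block called 20 members lower, beside 4441 of 13023 genes. For oxLDL+LPS against oxLDL it called 21 lower, beside 4052 of 12900 genes, or 20 with all 12 libraries, beside 4413 of 13482. The interaction gave 0 to 9 genes on leaving out libraries or numbers (6 without oxLDL+LPS replicate 2) and 147 with pools as a block. Of 2315 values of single members under all alternatives, 2005 kept their direction and side of the threshold, 151 newly passed, 59 no longer passed, 80 moved without a call and 20 reversed. The cause was not tested otherwise. Counting error was close to the spread between libraries for Tpcn1 and Tfeb with LPS, whose SDs of 19.9 and 21.5 compare with 15.6 and 21.2 expected from counting alone.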
